A study of Mus musculus with 2 samples.

Results

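The cells described here are classical monocytes of the mouse lung that were low in neutrophil granule genes, profiled by single-cell RNA sequencing of all live cells sorted from the lung. They were selected on their own transcripts with a fixed gate, applied in the same way to 1 library labelled GFI1 KO and 1 library labelled GFI1 WT. A cell had to pass the quality filter (at least 500 gene UMIs, at least 200 genes and at most 20% mitochondrial UMIs, a UMI being 1 counted molecule). It also had to show at least 3 of Vcan, F13a1, Ccr2, Ly6c2 and Thbs1, at least 1 UMI of Csf1r, at most 1 of the granule or neutrophil genes Fcnb, Mmp8, Abca13 and Cxcr2, at most 1 of the nonclassical genes Treml4, Cd300e, Eno3 and Ace, at most 5 UMIs of H2-Aa, H2-Ab1 and H2-Eb1 together, and 0 UMIs of Cd3e, Cd79a, Mertk and Ptprb. The gate held 2748 of the 29837 filtered cells of both libraries, 2574 of 10495 in the KO-labelled library and 174 of 19342 in the WT-labelled library. The mice were adult and on a C57BL6/J background, the labels give no treatment, and the KO animals lacked GFI1 in the germline, that is in every tissue and not in blood cells alone. Each title names 1 mouse, and each label has 1 library. An effect of the genotype therefore cannot be told apart from one of the mouse, the dissociation or the library, and no value below carries a test. The 2 libraries are called KO-labelled and WT-labelled, and paired values are given in that order.

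Classical monocytes leave the bone marrow in a CCR2-dependent way, circulate briefly and either enter tissues or convert into nonclassical monocytes that patrol the vessel wall. They share a progenitor with neutrophils, and both cell types respond to interferons by a common set of antiviral genes and to bacterial products and IL-6 by secreted acute-phase proteins. GFI1 is a transcriptional repressor that binds DNA through zinc fingers and recruits histone-modifying complexes, and it is known as a factor that neutrophil development requires and that restrains monocyte genes in myeloid progenitors.

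Of the 6 genes the gate required, the 5 markers and Csf1r, only Ly6c2 differed by at least 2-fold between the labels, and several of the genes it limited differed more. Levels are given as CPM, the UMIs of a gene summed over all gated cells of a library, per 1000000 UMIs of those cells once ribosomal, mitochondrial and Gm-numbered genes were left out. All intervals are exact 95% intervals and cover counting error only. These genes chose the cells, so their values are a description. Vcan, a matrix proteoglycan, stood at 741 CPM (730.0 to 752) in the KO-labelled library and at 624 CPM (579.8 to 669.8) in the WT-labelled library. Ccr2, the chemokine receptor for exit from the marrow, stood at 1029 CPM and 742 CPM. F13a1, a coagulation factor subunit, stood at 886 CPM and 1116 CPM, and Csf1r, the receptor for M-CSF, at 573 CPM and 668 CPM. Thbs1, the matrix protein thrombospondin-1, was the most abundant of these genes at 2523 CPM and 3777 CPM. Ly6c2, which encodes the surface antigen used to sort classical monocytes, stood at 762 CPM (751 to 774) and 1749.6 CPM (1676 to 1826), which is 2.29-fold lower in the KO-labelled library (2.19 to 2.40). All 5 monocyte markers were detected in 1822 of the 2574 cells in the KO-labelled library and in 95 of the 174 cells in the WT-labelled library.

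The description as low in granule genes held less well in the KO-labelled library. Exactly 1 of the 4 granule genes was detected in 1955 of 2574 cells there (76.0%, 74.3 to 77.6) and in 68 of 174 cells in the WT-labelled library (39.1%, 31.8 to 46.8). That gene was mostly Mmp8, neutrophil collagenase, which was detected in 1865 and 63 members and stood at 291 CPM and 100.3 CPM. Fcnb stood at 2.35 CPM and 1.66 CPM and Abca13 at 1.85 CPM and 0.829 CPM, so both were near the limit of detection. Of the nonclassical genes, Treml4 stood at 59.4 CPM and 24.9 CPM and Ace at 4.07 CPM and 48.9 CPM. Cxcr2, a chemokine receptor of neutrophils, had 15 UMIs (0.630 CPM) and 11 UMIs (9.12 CPM), and H2-Aa stood at 14.7 CPM and 32.3 CPM. At the granule threshold, 1955 cells with 1 gene lay just inside and 707 cells with 2 genes just outside in the KO-labelled library, against 68 and 10 cells in the WT-labelled library. For the monocyte markers, 205 cells with 3 detected lay inside and 72 cells with 2 outside in the KO-labelled library, and 22 and 29 cells in the WT-labelled library. For Csf1r, 178 cells with 1 UMI stood beside 92 cells with 0, and 20 beside 20. In the WT-labelled library the cells just outside were thus as many as or more than those just inside for both conditions. For the nonclassical genes, 918 cells with 1 stood beside 194 with 2, and 59 beside 40. For MHC class II, 37 cells with 5 UMIs stood beside 23 with 6, and 1 beside 4. A single UMI of Cd3e, Cd79a, Mertk or Ptprb kept 83 and 14 further cells out.

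Antibody tags, which were not part of the gate, gave a myeloid surface profile under both labels. The libraries held 18 antibody-derived tags beside the genes. The median count of the CD11b tag, an integrin of monocytes and neutrophils, was 770.5 UMIs per member in the KO-labelled library and 546.5 in the WT-labelled library, and at least 30 UMIs were counted in 2572 of 2574 and in 174 of 174 members. In B cells of the same libraries, taken by Cd79a and Ms4a1, the CD11b medians were 4 and 2 UMIs. The Ly6G tag, which marks neutrophils, had a median of 1 UMI under both labels and reached 30 UMIs in 0 of 2574 members (up to 0.143% by the exact interval) and in 5 of 174 members (2.87%, 0.939 to 6.58). The B220 tag, which marks B cells, had a median of 4 UMIs in the KO-labelled library and of 5 UMIs in the WT-labelled library, against 259 UMIs in B cells in the KO-labelled library. The CD45 tag, common to all leukocytes, had medians of 947.5 and 633.5 UMIs. The CD45 and CD11b tags were both higher in the KO-labelled library, as was the CD45 tag of B cells, at 655 against 486 UMIs.

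**Figure D1:**
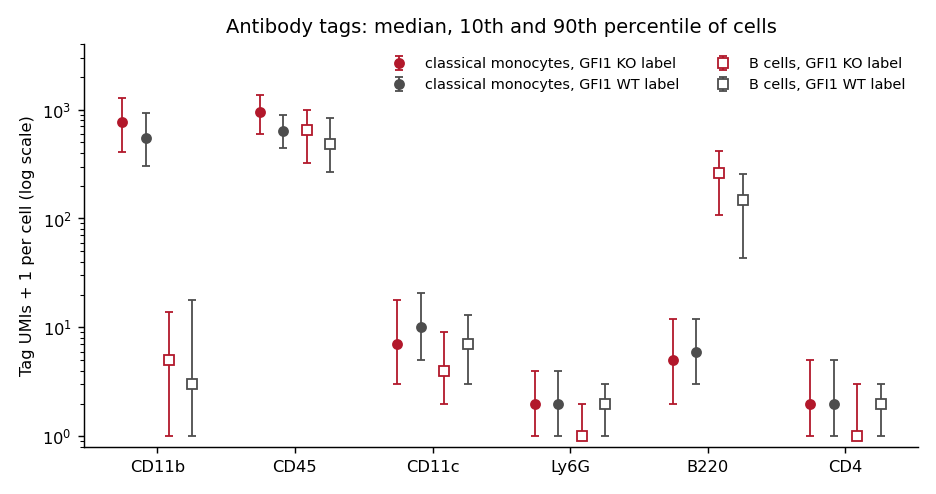
Antibody tag UMIs plus 1 per cell (y axis, log scale) for 6 tags in gated classical monocytes (filled circles) and B cells (open squares) of the library labelled GFI1 KO (red) and of that labelled GFI1 WT (grey). Points are medians and bars run from the 10th to the 90th percentile of cells. CD11b separates the gated cells (medians 770.5 and 546.5) from B cells (4 and 2), and Ly6G is at a median of 1 in the gated cells of both libraries.

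Gfi1 itself was not seen to be lower in the KO-labelled library. Gfi1 had 29 UMIs in the members in the KO-labelled library (1.22 CPM, 0.815 to 1.75) and 0 UMIs in the WT-labelled library, where the interval reaches 3.06 CPM. Its paralog Gfi1b had 12 and 0 UMIs. In T cells of the same libraries, taken by Cd3e, Gfi1 stood at 25.1 CPM in the KO-labelled library and 11.1 CPM in the WT-labelled library. The counted tags lie near the 3′ end of transcripts, and which part of the gene the KO allele lacks is not given in the sources used here, so these counts do not check the labels. For that reason the libraries are called by their labels throughout. The paper reports a reduced proportion of CD4-positive T cells in the lungs of its KO mice, from single-cell clusters and from flow cytometry. These libraries may be part of that single-cell data, so the next values may not be independent of it. Among the T cells here, the CD4 tag reached 30 UMIs in 23.4% (19.7 to 27.4) in the KO-labelled library and in 37.4% (34.9 to 39.9) in the WT-labelled library. An exchange of the labels was not tested.

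The libraries also differed in depth. In all, 116825535 gene UMIs were counted in the 10700 called cells of the KO-labelled library and 162599284 in the 19515 cells of the WT-labelled one. Among the members the median was 11456.5 UMIs and 3356 genes per cell in the KO-labelled library and 8521.5 UMIs and 2807 genes in the WT-labelled library. The member sums rest on 29920624 and 1477178 gene UMIs, so for genes at like levels most of the counting error came from the WT-labelled library. The libraries shared 74 cell barcodes, which 14 members in the KO-labelled library and 0 in the WT-labelled library carried, and leaving these out changed the share difference from 23.6 to 23.7 percentage points. Scrublet, a doublet caller, marked 17 members (0.660%) and 3 members (1.72%).

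Classical monocytes were far more frequent in the library labelled GFI1 KO. They made up 24.5% of its filtered cells (23.7 to 25.4) and 0.900% (0.771 to 1.04) of those in the WT-labelled library, a difference of 23.6 percentage points (22.8 to 24.5). Deeper cells pass a gate of detected genes more easily, and the gate was therefore repeated with cells reduced to 3000 UMIs. Cells with fewer UMIs were left out, also from the total. The shares were then 24.0% and 1.06%. With cells reduced to 1500 UMIs the difference was smaller, and it is given with the other settings below. With 0 granule genes allowed the shares were 5.90% and 0.548%, and with no limit on granule genes 33.4% and 0.951%. A share of sorted cells does not separate more monocytes from fewer other cells. B cells made up 7.41% and 13.5% of the filtered cells, T cells 4.73% and 7.41%, and alveolar macrophages, taken by Mertk and resident macrophage genes, 24.2% and 20.6%.

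The makeup of the monocytes also differed. Of the cells in 4 monocyte gates together, classical monocytes took 57.0% (55.5 to 58.4) in the KO-labelled library and 26.6% (23.3 to 30.2) in the WT-labelled library. Nonclassical monocytes, with at least 2 of the nonclassical genes, took 13.5% and 60.4%, and among them the Ly6G tag reached 30 UMIs in 1 of 610 cells (0.164%) and in 44 of 395 (11.1%, 8.21 to 14.7). Cells that passed every condition of the gate except the granule limit, here called granule-rich neighbours, numbered 934 (8.90% of filtered cells) and 10 (0.0517%). The Ly6G tag of neutrophils had a median of 1 UMI in the former and of 152 UMIs in the latter, and reached 100 UMIs in 0 of 934 and in 6 of 10, so the neighbours of the 2 libraries were unlike cells by this tag. Cells that failed only the MHC class II limit numbered 398 (3.79%) and 75 (0.388%). All 4 gates held a larger share of cells in the KO-labelled library, and nonclassical monocytes made up 5.81% and 2.04%.

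**Figure D2:**
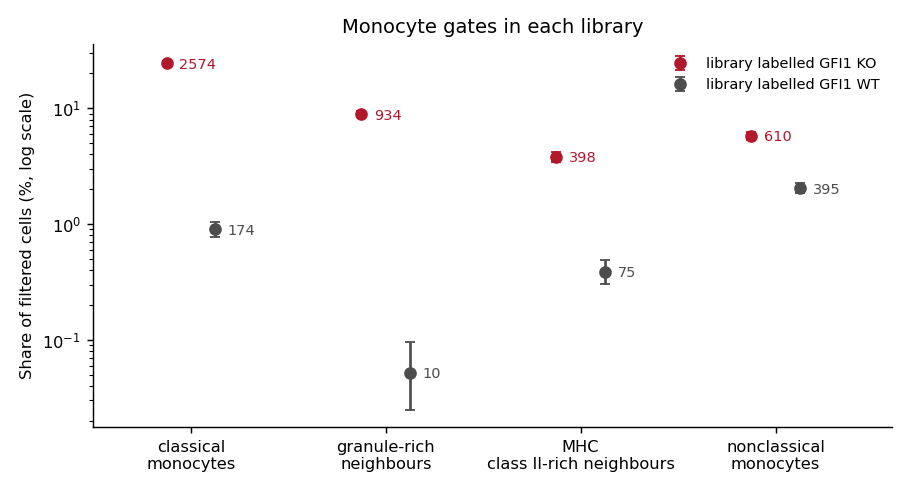
Share of filtered cells (y axis, percent, log scale) in the 4 monocyte gates of the library labelled GFI1 KO (red) and of that labelled GFI1 WT (grey). Bars are exact 95% intervals for counting error, and the numbers beside the points are cells. Classical monocytes are at 24.5% and 0.900%, granule-rich neighbours at 8.90% and 0.0517%.

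Within the gate, most genes were at like levels under both labels. Of 6082 genes that the gate did not use and whose mean level over both labels was at least 20 CPM, 95.4% lay within 2-fold and the median log2 ratio was 0.01. At least 2-fold higher in the KO-labelled library were 114 genes (1.87%), and at least 2-fold lower were 167 genes (2.75%). The whole counting interval lay past 2-fold for 38 of the higher and 96 of the lower genes. The 15 genes with the highest ratios held several secreted proteins. The lowest ratio was that of Retnlg, a neutrophil gene, at 5 UMIs (0.210 CPM) and 81 UMIs (67.2 CPM), 320.0-fold lower (132 to 1012), but 6 WT-labelled cells held all of the latter, and its ratio went from 0 to 0.0136 over the settings run. Most of the other 14 of the lowest genes were interferon-inducible.

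**Figure D3:**
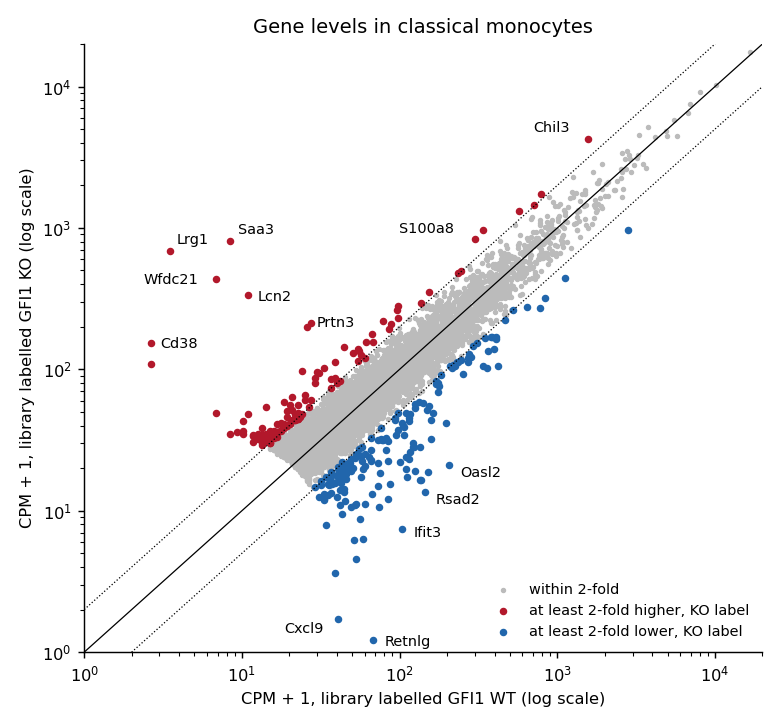
Level of each of 6082 genes in gated classical monocytes, as CPM plus 1 in the library labelled GFI1 WT (x axis) and in that labelled GFI1 KO (y axis), both on log scales. The solid line marks equal levels and the dotted lines 2-fold differences. The 114 genes at least 2-fold higher (red) include Lrg1 and Saa3 far from the diagonal, and the 167 genes at least 2-fold lower (blue) include Ifit3, Rsad2 and Oasl2.

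Acute-phase and secreted defence proteins were higher in the KO-labelled library. Of the 13 genes of this list, 8 passed the level filter, 6 of these were at least 2-fold higher and 0 lower, against 1.87% and 2.75% of all genes, and the median log2 ratio was 3.26. Lrg1, Saa3, Lcn2 and Wfdc21 passed the filter only through the KO-labelled library, so the count and the median are descriptions. Summed over the list, the members held 11221 CPM in the KO-labelled library and 3977 CPM in the WT-labelled library. Lrg1, a secreted leucine-rich glycoprotein of the acute phase, had 16318 UMIs (685 CPM, 675 to 696) in KO-labelled and 3 UMIs (2.49 CPM, 0.513 to 7.27) in WT-labelled members, which gives a 275-fold ratio (94.2 to 1336). With so few WT-labelled UMIs the ratio was 63.0 when the gate was applied after thinning to 3000 UMIs, the lowest of the settings that gave one. It was found in 2284 of 2574 and in 3 of 174 members. Saa3, a serum amyloid A made outside the liver, stood at 804 CPM (793 to 816) and 7.46 CPM (3.41 to 14.2), 108-fold higher (56.8 to 236). All 9 Saa3 UMIs in the WT-labelled library came from 1 cell, while 1405 members held the gene in the KO-labelled library. So both genes were widespread in one library and nearly absent from the other.

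Lcn2, lipocalin 2, which withholds iron from bacteria and is also a neutrophil granule protein, stood at 334 CPM and 9.95 CPM (33.6-fold higher, 19.2 to 65.0). Wfdc21, a small whey acidic protein-type secreted protein, stood at 437 CPM and 5.80 CPM (75.3-fold higher, 36.5 to 187). These folds rest on few WT-labelled UMIs, and over the settings that gave a ratio they went from 21.8 to 49.3 for Lcn2, from 50.2 to 242 for Wfdc21 and from 77.7 to 167 for Saa3. Chil3, a secreted chitinase-like protein of monocytes and alveolar macrophages, was the most abundant gene of the list and stood at 4256 CPM and 1556 CPM (2.73-fold higher, 2.61 to 2.86). Hp, haptoglobin, which binds free haemoglobin, stood at 1751 CPM and 785 CPM. The remaining pair that passed the filter lay just under 2-fold, with Wfdc17 at 1.85-fold and Slpi, a protease inhibitor, at 1.81-fold. Saa1 and Saa2, the serum amyloids of the liver, had 5 or fewer UMIs under either label.

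Other genes among the 15 with the highest ratios had varied roles. Cd38, an ectoenzyme that consumes NAD, stood at 153 CPM and 1.66 CPM and was found in 1413 and 2 members. Igfbp6, a secreted binding protein of insulin-like growth factors, stood at 108 CPM and 1.66 CPM. Prtn3, proteinase 3 of the azurophil granule, stood at 197 CPM and 24.9 CPM (7.91-fold higher, 5.53 to 11.7), in 1673 of 2574 and 24 of 174 members. Ifitm1, an interferon-induced transmembrane protein, stood at 211 CPM and 26.5 CPM, in the opposite direction to most interferon-stimulated genes below. The list also held Ier3, an immediate-early gene that stood at 960.0 CPM and 337 CPM, and Rhov, Pam, Ifi27 and Ptgfrn, at 48.3 and 5.80, 95.8 and 23.2, 47.7 and 9.95, and 42.0 and 9.12 CPM. Pam encodes the enzyme that amidates peptide hormones, and Ifi27, like Ifitm1, is interferon-inducible but was not on the list described below.

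The share of cells with a UMI showed the same order after depth was equalised. With each cell thinned to 3000 UMIs, which left out 19 members in the KO-labelled library and 1 in the WT-labelled library, Lrg1 was found in 68.1% of members (66.2 to 69.9) in the KO-labelled library and in 0 of 173 (up to 2.11%) in the WT-labelled library. Without thinning the shares were 88.7% and 1.72%. In thinned B cells, which should lack the gene and had medians of 4093 and 4550.5 UMIs before thinning, Lrg1 was found in 1.61% and 0.176%. Saa3 was found in 40.2% and 0.578% of thinned members, and in 0.730% and 0.264% of thinned B cells. Unthinned, Saa3 was found in 54.6% and 0.575% of members. The shares of thinned members in the WT-labelled library thus lay within or below those of B cells for both genes, although for Saa3 that share is 1 cell that held all 9 UMIs before thinning.

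Most of the listed interferon-stimulated genes were lower in the KO-labelled library. Of the 34 genes of this list, 32 passed the level filter. Of these, 28 were at least 2-fold lower and 0 higher, against 2.75% and 1.87% of all genes. The list was chosen with earlier results of these data known. It left out the interferon-inducible Ifitm1 and Ifi27, which were 7.96-fold and 4.80-fold higher, so the 0 holds for the listed genes alone. The count of lower genes was 26 with 0 granule genes and with the gate applied after thinning. Members such as Ifit3, Rsad2 and Ifi205 passed the filter only through the WT-labelled library, so the count is a description. The median log2 ratio was -1.56, against 0.01 over all 6082 genes. The summed level was 8146 CPM and 13586 CPM, a smaller difference because 2 abundant members differed little, Ifitm3 at 4468 and 5746 CPM and Ly6e at 1691 and 2095 CPM. Zbp1 and Ifi204 were the other members within 2-fold, with ratios of 0.588 and 0.522. Lowest were antiviral effectors. Ifit3, which sequesters foreign RNA with its family, had 152 UMIs (6.38 CPM, 5.41 to 7.48) in the KO-labelled library and 124 UMIs (103 CPM, 85.5 to 123) in the WT-labelled library, 16.1-fold lower (12.6 to 20.6). Rsad2, the antiviral enzyme viperin, stood at 12.6 CPM and 143 CPM (11.3-fold lower, 9.30 to 13.7). Oasl2, of the oligoadenylate synthetase family, stood at 20.2 CPM and 206 CPM (10.2-fold lower, 8.68 to 11.9). The ratios moved to 0.112 for Ifit3 and 0.140 for Rsad2 when the gate was applied after thinning to 3000 UMIs, and to 0.153 for Oasl2 in members with 0 granule genes.

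The transcription factors that drive this response were lower by a smaller factor than Ifit3, Rsad2 and Oasl2, though not than the list as a whole. The ratios were 0.313 for Irf7 and 0.244 for Stat2. Irf7 stood at 105 CPM and 337 CPM and Stat2 at 29.3 CPM and 120.2 CPM. The ubiquitin-like modifier Isg15 stood at 100.5 CPM and 357 CPM (ratio 0.282, 0.254 to 0.313), and the tetherin gene Bst2 at 134 CPM and 362 CPM. Also among the 15 genes with the lowest ratios were the interferon-inducible Ifit2 (5.29 and 57.2 CPM), Ifi205 (11.1 and 83.7 CPM), Ifi206 (9.57 and 73.0 CPM), Ifi213 (17.8 and 150.1 CPM), Ifit1bl1 (3.57 and 52.2 CPM) and the uncharacterised A330040F15Rik (15.5 and 134 CPM). The chemokine genes Cxcl9 and Cxcl10, which attract T cells, stood at 0.714 and 39.8 CPM and at 18.2 and 124 CPM, but few cells carried them. The 48 Cxcl9 UMIs in the WT-labelled library came from 4 cells and the 150 Cxcl10 UMIs from 21 cells, and in the KO-labelled library 1 cell held 190 of 434 Cxcl10 UMIs. In members with 0 granule genes Cxcl10 stood at 45.6 and 80.6 CPM, no longer 2-fold apart.

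The start-site regions of the 3 genes of this list that ranked lowest by the interval bound nearer to 1 are shown because this group moved together and is known to be driven through an interferon response element. The regions run from 250 bases before to 50 bases after the start in RefSeq's GRCm38.p6 annotation, written 5′ to 3′ on the gene's strand, at chr19:34583279-34583578 on the plus strand for Ifit3, chr12:26456403-26456702 on the minus strand for Rsad2 and chr5:114896684-114896983 on the plus strand for Oasl2. Capitals mark matches on either strand to the letters GAAANNGAA, the core of that element, where N is any base.
Ifit3: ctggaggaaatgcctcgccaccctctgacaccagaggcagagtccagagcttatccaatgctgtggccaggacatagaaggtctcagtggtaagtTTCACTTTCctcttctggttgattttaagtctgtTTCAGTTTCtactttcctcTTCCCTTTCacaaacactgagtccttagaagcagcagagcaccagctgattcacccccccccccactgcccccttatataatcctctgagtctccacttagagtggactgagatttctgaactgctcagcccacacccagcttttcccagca
Rsad2: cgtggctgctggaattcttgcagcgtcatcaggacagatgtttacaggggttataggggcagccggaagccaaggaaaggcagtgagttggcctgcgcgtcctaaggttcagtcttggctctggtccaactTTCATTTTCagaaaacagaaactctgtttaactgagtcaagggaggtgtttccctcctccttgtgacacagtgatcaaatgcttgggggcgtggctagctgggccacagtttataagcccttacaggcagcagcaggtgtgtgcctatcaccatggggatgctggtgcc
Oasl2: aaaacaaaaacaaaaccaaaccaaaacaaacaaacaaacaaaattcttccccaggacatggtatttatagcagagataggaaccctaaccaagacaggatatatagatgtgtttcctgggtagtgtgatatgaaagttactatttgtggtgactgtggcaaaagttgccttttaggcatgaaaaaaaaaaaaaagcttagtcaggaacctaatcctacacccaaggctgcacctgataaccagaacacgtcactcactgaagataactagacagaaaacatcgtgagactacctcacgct
The Ifit3 region held 3 matches, the Rsad2 region 1 and the Oasl2 region 0. Of the 34 listed genes, 26 had a region in the table, with 29 regions between them. At least 1 match was in 16 of these 29 regions, from 16 genes, against 8.56% of all 32851 regions. A core of the GFI1 recognition sequence, AAATCA, on either strand, was in 7 of the 29 regions, from 7 genes. It was in 3 of the 11 regions of the 10 acute-phase genes with a region, and in 14.0% of all regions. The acute-phase genes Hp, Orm1 and Wfdc21 had no region in the table.

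**Figure D4:**
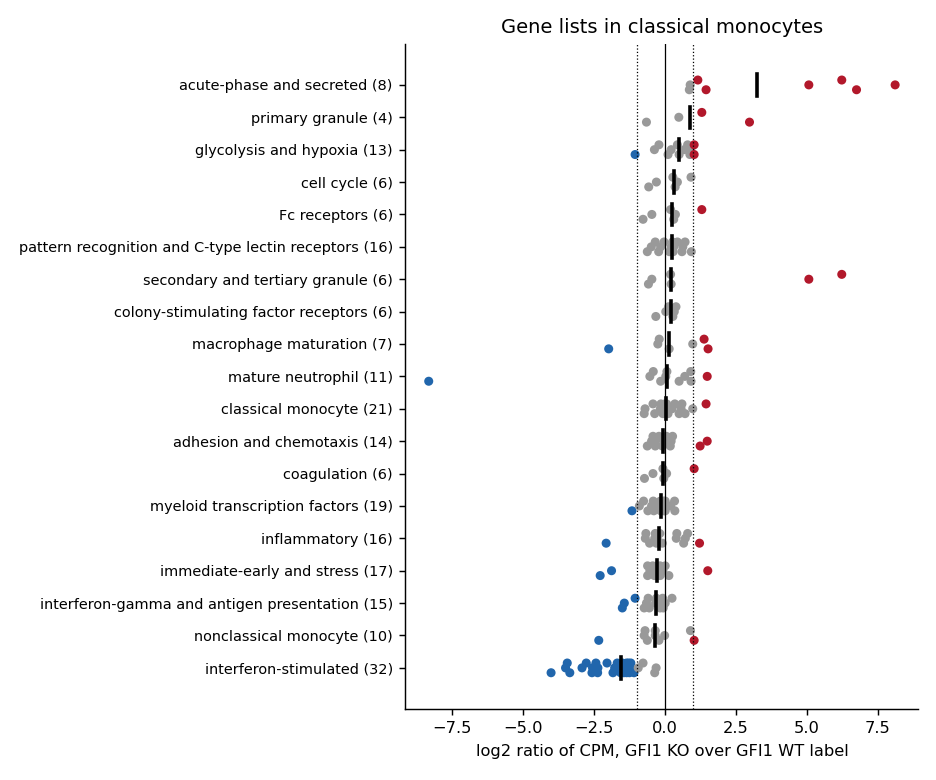
log2 ratio of CPM, GFI1 KO over GFI1 WT label (x axis), for each gene that passed the level filter in 19 lists (y axis, number of genes in parentheses), in gated classical monocytes. Red and blue points are at least 2-fold higher or lower, black bars are list medians and dotted lines mark 2-fold. The acute-phase list has a median of 3.26 and the interferon-stimulated list of -1.56.

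The list sums per cell differed in their medians, while the genes with the lowest ratios came from fewer cells. Ifit3 was found in 33 of 174 members in the WT-labelled library and Rsad2 in 41, and the tenth of cells with the most UMIs held 85.5% and 80.2% of those of the WT-labelled members. Oasl2 was found in 87 of 174 members there, and the same share of cells held 47.6% of its UMIs. Most UMIs of the list were those of Ifitm3 and Ly6e, so the sums per cell say little of these rarer genes. Per 3000 UMIs, a member held a median of 19 interferon-stimulated UMIs in the KO-labelled library (10th to 90th percentile 11 to 30) and of 27 in the WT-labelled library (15.2 to 57.8). The tenth of cells with the most such UMIs held 19.6% and 25.8% of them. For the acute-phase list the medians were 26 (13 to 42) and 8 (3 to 20), and at least 10 such UMIs were found in 2428 of 2555 cells and in 70 of 173 cells. Chil3 alone held 4256 of the 11221 CPM of this list in the KO-labelled library and 1556 of the 3977 CPM in the WT-labelled library. These sums per cell therefore say less of Lrg1, Saa3, Lcn2 and Wfdc21. The distributions overlapped for both lists.

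**Figure D5:**
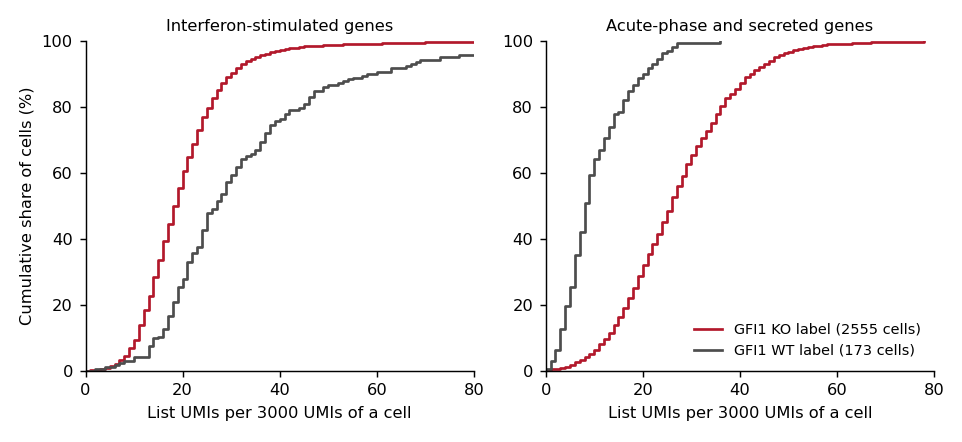
Cumulative share of gated cells (y axis, percent) by the UMIs of a list per cell, each cell thinned to 3000 UMIs (x axis), for the interferon-stimulated list (left) and the acute-phase list (right), in the library labelled GFI1 KO (red, 2555 cells) and in that labelled GFI1 WT (grey, 173 cells). Medians are 19 and 27 UMIs on the left and 26 and 8 UMIs on the right. The x axis ends at 80 UMIs, and the highest cells of the left panel lie beyond it.

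The same lists stood differently in other cells of these libraries. For the interferon-stimulated list the summed ratio of the GFI1 KO over the GFI1 WT label was 0.600 (0.590 to 0.609) in the classical monocytes, 0.945 (0.919 to 0.972) in the MHC class II-rich neighbours, 1.03 (1.01 to 1.05) in nonclassical monocytes, 1.09 (1.07 to 1.12) in B cells, 1.16 (1.12 to 1.20) in T cells and 1.20 (1.18 to 1.22) in alveolar macrophages. Of the members past the level filter in each of these cells, 28 of 32, 5 of 28, 2 of 24, 0 of 12, 0 of 16 and 0 of 8 were at least 2-fold lower, against 2.75%, 3.65%, 2.06%, 0.946%, 1.63% and 0.273% of all genes compared in these cells. In the granule-rich neighbours the summed ratio was 0.926 (0.857 to 1.00) and 9 of 24 members were lower, against 1007 of all 6279 genes there, with 10 cells in the WT-labelled library, 6 of them high in the Ly6G tag. The part of Ly6G-tagged cells in the ratios of these neighbours and of nonclassical monocytes, for both lists, was not tested. Ifit3, for example, stood at 8.73 and 10.1 CPM in nonclassical monocytes and at 3.39 and 4.18 CPM in B cells, all near the level of the classical monocytes in the KO-labelled library. The acute-phase list had a higher sum in each monocyte gate, with summed ratios of 2.82 (2.74 to 2.90) in the classical monocytes, 2.52 (2.30 to 2.77) in the granule-rich neighbours, 3.03 (2.87 to 3.20) in the MHC class II-rich neighbours and 5.14 (4.94 to 5.36) in nonclassical monocytes. Of the genes that passed, 7 of 9 were at least 2-fold higher and 1 lower in the MHC class II-rich neighbours, against 2.62% and 3.65% of all genes there, and 7 of 8 were higher and 0 lower in nonclassical monocytes, against 2.42% and 2.06%. In the granule-rich neighbours 6 of 8 were higher and 1 lower, against 878 and 1007 of all 6279 genes. The summed ratio was 1.07 (0.970 to 1.17) in B cells, where 0 of 2 genes were higher against 0.0887% of all genes, 0.953 (0.835 to 1.09) in T cells and 0.799 (0.796 to 0.802) in alveolar macrophages, where 2 of the 6 genes that passed were at least 2-fold higher (0.106% of all genes there), 0 were lower and the median log2 ratio was 0.71. Chil3, a gene of this list, was also among the genes that chose the alveolar macrophages. Lrg1 stood at 299 and 18.5 CPM in nonclassical monocytes, 32.2 and 11.3 CPM in alveolar macrophages and 5.28 and 1.69 CPM in B cells. With 1 library a label, whether the ratios differ between cell types beyond the mice was not tested.

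The listed granule genes that passed the filter and lay past 2-fold were higher in the KO-labelled library, while the calls of mature neutrophil genes depended on the setting. The counts in the lists below stand against 1.87% of all genes higher and 2.75% lower. Of 10 primary granule genes, 9 were among the measured genes, 4 passed the filter, 2 were at least 2-fold higher and 0 lower. These were Prtn3 and Serpinb1a, an inhibitor of neutrophil proteases, at 40.8 CPM and 16.6 CPM, while Ctsc, the protease that activates granule proteases and the most abundant of the list, stood at 1090.4 CPM and 778 CPM. Elane, neutrophil elastase, had 263 UMIs in KO-labelled and 0 UMIs in WT-labelled members, and Mpo 1.30 CPM and 0 UMIs. Of 12 secondary and tertiary granule genes, 6 passed, and Lcn2 and Wfdc21 were the 2 that were higher. Ltf, Camp and Ngp were below 1 CPM in the KO-labelled library and had 0 UMIs in the WT-labelled library. The mature neutrophil list had 1 of 11 genes higher, S100a8, and 1 lower, Retnlg, with a median log2 ratio of 0.07. With members carrying a neutrophil or NK cell UMI left out, which removes all Retnlg UMIs, 3 were higher, 0 lower and the median was 0.71. With the gate applied after thinning to 3000 UMIs, 2 were higher, 1 lower and the median was 0.51. In members with 0 granule genes, 0 were higher, 2 lower and the median was -0.04. S100a8, a subunit of the calcium-binding protein calprotectin, stood at 837 CPM and 299 CPM, but the tenth of members with the most UMIs held 79.8% of those in the KO-labelled library, and 20 cells held all 360 UMIs in the WT-labelled library. Its partner S100a9 stood at 276 CPM and 399 CPM, the other way round, and its direction was not stable, with a log2 ratio of 1.69 when the gate was applied after thinning to 3000 UMIs and of -2.44 in members with 0 granule genes (62.0 and 338 CPM). In members with 0 granule genes, S100a8 stood at 224 CPM and 259.8 CPM, so its direction depended on the granule limit, and over the settings run its ratio went from 0.861 to 13.5. The 81 Retnlg UMIs in the WT-labelled library came from 6 cells.

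Other leading genes kept their direction in members without Mmp8 or another granule gene. In the 619 and 106 members with 0 granule genes, Lrg1 stood at 622 and 2.78 CPM, Cd38 at 145 CPM and 0 UMIs, Lcn2 at 169 and 5.56 CPM, Prtn3 at 135 and 23.6 CPM, and Ifit3 at 6.12 and 95.9 CPM. Under the GFI1 KO label, Lcn2 and Wfdc21 were higher in the 1955 members with 1 granule gene, at 379 and 492 CPM, than in the 619 with 0, at 169 and 232 CPM. Lrg1 differed little between them, at 702 and 622 CPM.

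Genes of monocyte identity and signalling mostly lay within 2-fold, as did 95.4% of all genes. Of 22 classical monocyte genes, 21 passed, only Chil3 was at least 2-fold higher and 0 were lower, with a median log2 ratio of 0.05. Of 16 pattern recognition and C-type lectin receptors all 16 passed and 0 lay past 2-fold, among them Cd14, a co-receptor for endotoxin, at 1536 and 940.3 CPM. All 6 receptors of colony-stimulating factors and related cytokines that passed were within 2-fold, with Csf3r at 170.1 and 167 CPM. Of 28 myeloid transcription factors 19 passed and only Maf, at 56.2 and 125 CPM, was past 2-fold. Cebpb, at 3256 and 3241 CPM, was the most abundant, Spi1 (PU.1) stood at 827 and 654 CPM, Irf8 at 172 and 177 CPM, and Klf4 at 247 and 461 CPM (ratio 0.536, 0.491 to 0.585). Of 20 cell cycle genes 6 passed and 0 of these lay past 2-fold, and Mki67 stood at 12.0 and 7.46 CPM. Among 10 nonclassical monocyte genes that passed, Cd36, a scavenger receptor, was lower at 8.44 and 42.3 CPM and Pglyrp1, a peptidoglycan-binding protein, was higher at 79.5 and 39.0 CPM. Among 7 macrophage maturation genes that passed, the lipid-sensing receptor Trem2 (138 and 53.1 CPM) and the lysosomal protease Ctsl (278 and 97.0 CPM) were higher and the lipase gene Lpl (21.3 and 83.7 CPM) was lower.

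Inflammatory genes did not move as a group. With 1.87% of all genes higher and 2.75% lower, 1 gene past 2-fold in a list of this size is a small count, and nothing is read from it. Of 22 listed, 16 passed, 1 was higher and 1 lower. Cxcl2, a neutrophil-attracting chemokine, was higher at 1326 and 570.5 CPM, Il6 was lower at 17.6 and 73.8 CPM, and Il1b, the most abundant, stood at 3396 and 2566 CPM. Cxcl1, below the filter, had 21.6 CPM and 1 UMI. Of 14 adhesion and chemotaxis genes that passed, the receptors Ccr1 (219 and 77.9 CPM) and C5ar1 (229 and 97.0 CPM) were higher and 0 were lower. Of 6 Fc receptor genes, Fcgr4 was higher at 133 and 53.9 CPM and the others lay within 2-fold. Of 15 genes of interferon-gamma response and antigen presentation that passed, 3 were lower, namely Cd74 (224 and 463 CPM), Gbp2 (38.6 and 104 CPM) and Nlrc5 (33.5 and 94.5 CPM), and the abundant B2m stood at 1648 and 2584 CPM. Cd74 encodes the MHC class II chaperone, and the gate limited MHC class II under both labels. Of 17 immediate-early and stress genes, the heat shock genes Hspa1a (43.1 and 158 CPM) and Hspa1b (40.6 and 197 CPM) were lower and Ier3 was higher, while Fos stood at 1461 and 1529 CPM. Of 13 glycolysis and hypoxia genes that passed, Aldoa (479.7 and 235 CPM) and Pfkl (28.9 and 14.1 CPM) were just past 2-fold higher and Vegfa (111 and 229.7 CPM) was lower, and Gapdh, the most abundant, lay at 1.74-fold (1199 and 687 CPM). Of 6 coagulation genes that passed, F10 was just past 2-fold higher at 497 and 243 CPM, which 5 alternative settings ended, CPM over all gene UMIs among them. Such calls near 2-fold also ended under 3 to 4 settings for Cd74, Pglyrp1, Aldoa, Pfkl and Vegfa. They ended under 1 setting for Hp and Cxcl2 (0 granule genes) and for Fcgr4 (gate after thinning to 3000 UMIs). The call of Il6 was farther from 2-fold, at a ratio of 0.238. It ended under 1 setting, the gate after thinning to 3000 UMIs, where the ratio was 0.590.

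Of 12 lists of other cell types, 6 had a summed level at least 2-fold lower in the KO-labelled library, those of NK cells, epithelium, T cells, fibroblasts, interstitial macrophages and endothelium, and 0 at least 2-fold higher. The NK cell list (Ncr1, Klrb1c, Gzma and Prf1) summed to 35.3 CPM in the KO-labelled library and 157 CPM in the WT-labelled library, most of it Gzma. The epithelial list summed to 17.5 and 141 CPM, nearly all of it Scgb1a1, the secretoglobin of club cells, which stood at 36.2 and 2144 CPM in B cells and was found in 92 of 174 members in the WT-labelled library. Klra4, an NK cell receptor among the 15 lowest genes, had its 46 UMIs in the WT-labelled library in 5 cells, and the unnamed gene ENSMUSG00000121360, also among the 15, had its 61 UMIs in 6 cells. The neutrophil list summed to 1509 and 1147 CPM with S100a8 as its most abundant gene, and Ly6g had 2 UMIs in the KO-labelled library and 0 in the WT-labelled library. The alveolar macrophage list summed to 37.8 and 56.4 CPM, the interstitial macrophage list to 17.5 and 40.6 CPM, the dendritic cell list to 39.4 and 58.9 CPM with Xcr1 at 0, the T cell list to 3.57 and 9.12 CPM, and the B cell list to 143 and 135 CPM, nearly all Ighm. The endothelial, fibroblast and platelet and red cell lists summed to at most 23.2 CPM, and the mast cell and basophil genes Mcpt8, Cpa3, Fcer1a and Ms4a2 were at 0 under both labels. When members with a UMI of Ly6g, Retnlg, Ncr1, Klrb1c or Gzma were left out, 129 genes were higher and 158 lower, sharing 101 and 150 with the reported 114 and 167. The part of epithelial RNA in the differences was not tested.

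The granule-rich neighbours, compared within the library labelled GFI1 KO, shared most of the profile. Of 6125 genes with a mean of at least 20 CPM over the 934 neighbours and the 2574 members, 15 were at least 2-fold higher in the neighbours and 10 at least 2-fold lower. S100a9 stood at 7039 CPM in the neighbours and 276 CPM in the members (25.5-fold, 24.9 to 26.2), S100a8 at 9007 and 837 CPM, Lcn2 at 1274 and 334 CPM, and Elane was 3.84-fold higher (3.29 to 4.48). The proliferation genes Pclaf (35.4 and 8.44 CPM) and Mki67 (37.8 and 12.0 CPM) and Cd24a (39.1 and 13.1 CPM) were also higher. Lower in the neighbours were Cd74 (82.6 and 224 CPM), Tmem176a (112 and 282 CPM), Tmem176b (177 and 431 CPM), Adgre4 (49.3 and 100.3 CPM), an adhesion receptor of nonclassical monocytes and macrophages, and Apoe (763 and 1623 CPM). Lrg1, at 751 and 685 CPM, and Saa3, at 700.4 and 804 CPM, were at like levels in both. Both groups come from 1 library, and the neighbours had a median of 13524.5 UMIs per cell against 11456.5.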

How the data were processed

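Total live lung cells of 1 GFI1 KO and 1 GFI1 WT mouse were profiled with 10x Genomics 3′ chemistry and antibody tags. The authors deposited raw UMI counts per gene or tag and called cell, without normalization, made per the file headers with Cell Ranger 9.0.1, and the submitters' processing notes name GRCm39 (mm39). The study's methods state more samples per genotype, and those were not analysed here. The matrices held 33696 genes and 18 tags. The quality filter followed the study's methods, and 9536 ribosomal, mitochondrial and Gm-numbered genes, which took 20.4% and 18.4% of the members' UMIs, were left out of CPM. UMIs were summed over the gated cells of each library, since cells are not replicates. Levels have exact Poisson intervals, ratios exact conditional binomial intervals and shares Clopper-Pearson intervals, at 95%. A gene counted as higher or lower at a ratio of at least 2 or at most 0.5. Cells were thinned with a fixed seed, and cells below the depth were left out. Doublets stayed in the reported values, and calls by Scrublet (scanpy 1.11.5) were left out in an alternative. Python 3.11.15, numpy 2.4.6, scipy 1.17.1, R 4.3.3 and edgeR 4.0.16 (TMM factors alone) were used, and the ratios and the thinning were tested on simulated data.

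Other cells were taken by short gates. B cells had at least 2 UMIs of Cd79a and 1 of Ms4a1, T cells at least 2 of Cd3e, and alveolar macrophages at least 1 of Mertk and 3 of the 5 genes Chil3, Ear2, Plet1, Fabp1 and Krt79, without the markers of the others. The gate and the 31 gene lists (19 of processes and 12 of other cell types) were chosen with earlier results of these data known. Named genes were all gate genes, Gfi1 and Gfi1b, the 15 highest and 15 lowest ratios ranked by the interval bound nearer to 1, the most abundant and most changed members of each list, and the 8 genes most different each way in the granule-rich neighbours. Names come from the deposited files. Start-site regions come from RefSeq's GRCm38.p6 table, another build than the counts, and no coordinates of the counts were used.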

Additional observations from a re-analysis of the deposited data

How the results depend on the processing

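The share of classical monocytes was higher in the KO-labelled library under all 13 alternatives. The difference of 23.6 percentage points became 12.2 with cells thinned to 1500 UMIs before the gate, 21.8 with at least 4 of the 5 markers, 5.35 with 0 granule genes, 32.5 with no granule limit, 27.0 with no MHC class II limit and 30.4 as a share of all monocyte gates. Genes at least 2-fold higher numbered 369 at a mean of at least 5 CPM, 46 at 50 CPM and 203 with cells thinned to 3000 UMIs, against 114, and those lower numbered 366 at 5 CPM and 87 at 50 CPM, against 167. With thinned cells, 83 of the 114 higher and 132 of the 167 lower genes were shared, and higher genes made up 51.1% of the calls against 40.6%. Scaling by TMM gave 132 and 149 genes, and CPM over all gene UMIs 81 and 166. The acute-phase median log2 ratio of 3.26 became 2.92 with thinned cells and 3.60 with the gate applied after thinning to 3000 UMIs, and the interferon-stimulated median of -1.56 moved by under 0.2 in every setting run. The 28 lower genes of the latter list became 27 with thinned cells and 26 with 0 granule genes or with the gate after thinning. The calls of Oas3, Oasl1, Parp14 and Xaf1 each ended under 1 setting. The log2 ratio of S100a8 turned to -0.22 with 0 granule genes. The medians of 7 lists near 0 changed sign in 1 or 2 settings, those of the classical monocyte (0.05 to -0.00), secondary and tertiary granule, mature neutrophil, inflammatory, cell cycle, coagulation and macrophage maturation genes, and S100a9, within 2-fold as reported, went from -0.53 to 1.69 with the gate after thinning and to -2.44 with 0 granule genes. The ratio of Lrg1 went from 275 to 63.0 with the gate after thinning, and that of Cxcl10 from 0.146 to 0.566 with 0 granule genes. The other values that were run under these settings kept their direction, and many printed levels within 2-fold were not run. Leaving out shared barcodes, or members with a neutrophil or NK cell UMI, was chosen after seeing the data. The causes of these changes were not tested. No paired analysis was possible because each label has 1 library, so nothing here measures the spread between mice, and ratios rest on 174 WT-labelled cells, or, for genes much lower in the KO-labelled library such as Retnlg (5 UMIs), on few KO-labelled UMIs.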
